A study of Mus musculus with 8 samples.

Results

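Socs1, Socs2, Socs3, Socs4, Socs5, Socs6, Socs7 and Cish encode the 8 proteins of the mouse suppressor of cytokine signalling (SOCS) family. Their transcripts were followed in bone-marrow-derived macrophages that lack the kinase Tpl2 and in wild-type macrophages, with and without lipopolysaccharide (LPS). Probe sets annotated to exactly 1 of the 8 symbols were taken, which gave 24 of the 45101 probe sets on the array. All 8 genes were measured, out of 18193 genes in all. Where a gene had several probe sets, the brightest on average represented it and the others served as a check.

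SOCS proteins close a negative feedback loop on cytokine receptors. An engaged receptor activates Janus kinases (JAKs), the kinases phosphorylate STAT transcription factors, and STATs switch on several SOCS genes, whose proteins then return to the receptor. Each member carries an SH2 domain, which binds phosphotyrosine, and a SOCS box, which recruits elongins B and C and a cullin into a ubiquitin ligase. Socs1 and Socs3 also hold a short region that blocks JAK activity directly. In macrophages Socs1 restrains interferon signalling and Socs3 binds gp130, the receptor subunit shared by the interleukin-6 family. Tpl2, encoded by Map3k8, is a kinase that couples Toll-like receptors to the MEK and ERK kinases.

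There were 4 groups of 2 arrays: Tpl2-deficient macrophages given LPS, wild-type macrophages given LPS, unstimulated Tpl2-deficient macrophages and unstimulated wild-type macrophages. LPS came from Escherichia coli and was used at 1 µg/mL. All cells were grown from marrow with M-CSF at 10 ng/mL for 7 to 10 days, so all groups share that cytokine. The labels used here do not assign an LPS exposure time to an array, and they give no strain, age or allele structure for the mice. They call the arrays biological replicates without saying that these came from separate animals, so p-values measure the spread between these arrays. Levels are log2 RMA intensities, and a difference of 1 is a doubling.

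Map3k8 was 2.00-fold lower in Tpl2-deficient than in wild-type macrophages under LPS (adjusted p = 0.000125) and 2.00-fold lower at rest (adjusted p = 0.00237). It was at 9.83 and 10.09 in Tpl2-deficient cells with LPS, against 11.01 and 10.91 in wild-type cells with LPS. The labels do not say which part of the gene was removed, so this probe set may lie outside it. Arrays of a group correlated at r = 0.9938 to 0.9973, and the median SD between arrays of a group was 0.1285 in LPS-treated Tpl2-deficient cells, against 0.0649 to 0.0662 in the other groups. The summed linear level of 10 macrophage markers, all measured, was 131979 to 139218 in LPS-treated Tpl2-deficient cells and 151544 to 152114 in LPS-treated wild-type cells. In Tpl2-deficient cells 1 of the 10 was higher, Mertk (log2 change 1.00), and 2 were lower, Msr1 (-1.19) and Itgam (-0.70). The other 7 did not pass an adjusted p of 0.05, where 8.01% of all genes were higher and 5.73% lower. The summed level of the 6 neutrophil markers measured was 940 to 1054 and 1535 to 1727 in these groups. That gap was carried by S100a8 (mean level 9.03 and 10.17), while the mean levels of the other 5 differed by 0.05 or less. Their part in the results was not tested. In bulk RNA, fewer cells expressing a gene and less RNA per cell cannot be told apart.

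Promoter windows were present in the RefSeq table (build GRCm38.p6) for 4 of the 8 members, Socs1, Socs3, Socs4 and Cish. Each window runs from 250 bases before to 50 bases after the gene's start. The windows of Cish, Socs3 and Socs1 are shown because these genes rose with LPS in both genotypes. Capitals mark matches, on either strand, to a STAT motif (TTCNNNGAA) or an interferon regulatory factor (IRF) motif (GAAA, any 2 bases, GAAA). The windows lie at chr9:107296409-107296708 (+ strand) for Cish, chr11:117969317-117969616 (- strand) for Socs3 and chr16:10785487-10785786 (- strand) for Socs1.
Cish: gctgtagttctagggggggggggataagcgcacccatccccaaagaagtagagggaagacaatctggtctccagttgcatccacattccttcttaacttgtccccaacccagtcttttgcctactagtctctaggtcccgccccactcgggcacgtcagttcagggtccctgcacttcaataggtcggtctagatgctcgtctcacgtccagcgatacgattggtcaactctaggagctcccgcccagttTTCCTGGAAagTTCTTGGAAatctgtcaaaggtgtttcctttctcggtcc
Socs3: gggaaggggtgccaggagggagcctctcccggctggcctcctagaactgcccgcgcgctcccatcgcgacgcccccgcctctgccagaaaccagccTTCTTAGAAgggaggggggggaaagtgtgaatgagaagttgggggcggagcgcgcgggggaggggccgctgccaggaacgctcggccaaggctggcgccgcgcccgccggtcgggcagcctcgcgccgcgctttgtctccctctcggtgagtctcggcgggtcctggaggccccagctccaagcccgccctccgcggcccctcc
Socs1: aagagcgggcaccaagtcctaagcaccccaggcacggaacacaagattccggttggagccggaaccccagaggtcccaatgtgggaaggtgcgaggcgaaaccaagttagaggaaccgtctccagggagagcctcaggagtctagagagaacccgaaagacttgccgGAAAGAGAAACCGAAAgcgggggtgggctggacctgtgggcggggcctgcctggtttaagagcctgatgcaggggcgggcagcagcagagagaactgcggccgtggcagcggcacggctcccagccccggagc
Cish held 2 STAT matches, TTCCTGGAA and TTCTTGGAA, beginning at positions 1 and 12 counted from the gene's start. Socs3 held 1, TTCTTAGAA, beginning at -154. Socs1 held no STAT match and 2 overlapping IRF matches, GAAAGAGAAA and GAAACCGAAA, beginning at -83 and -77. A STAT match occurred in 8.3% of all 32851 promoter windows and an IRF match in 3.44%. The NF-kB motif (GGGA, any 2 bases, TTCC; 1.47% of windows) and the AP-1 motif TGANTCA (7.81%) had no match in any of the 4 windows, and Socs4 (chr14:47276670-47276969, + strand) held none of the 4 motifs. A match describes letters in the window and no more.

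The comparison of genotypes under LPS asks how the levels of these genes differ between Tpl2-deficient and wild-type macrophages that were given LPS. Socs2, Socs7 and Cish were higher and Socs3 was lower in Tpl2-deficient than in wild-type macrophages given LPS. These 4 of 8 members passed an adjusted p of 0.05 (limma, Benjamini-Hochberg over all genes), where 13.7% of all genes passed. By direction, 3 members were higher, against 8.01% of all genes, and 1 was lower, against 5.73%. The median log2 change was 0.12 over the members and 0.02 over all genes.

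In unstimulated cells 0 of 8 members passed between Tpl2-deficient and wild-type macrophages, where 0.5% of all genes passed (0.154% higher and 0.346% lower). The limma fit gave 2 members an unadjusted p under 0.05, Socs2 and Socs3, and the count was also 0 under every alternative setting run. Their log2 differences were -0.40 (95% interval -0.73 to -0.07) and -0.45 (-0.85 to -0.05), with adjusted p = 0.289 and 0.311.

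With LPS against no stimulus, 7 of 8 members passed in Tpl2-deficient cells, 5 higher and 2 lower, where 41.8% of all genes passed (16.0% higher and 25.8% lower). In wild-type cells 7 of 8 passed too, 4 higher and 3 lower, where 52.2% of all genes passed (21.3% higher and 30.9% lower). The LPS response differed between genotypes, tested as an interaction, for 2 of 8 members, Socs2 and Socs7, where 8.59% of all genes passed. Both were more strongly raised in Tpl2-deficient cells (5.72% of all genes passed in that direction and 2.87% in the other). The comparisons share arrays, so their counts are not independent.

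**Figure D1:**
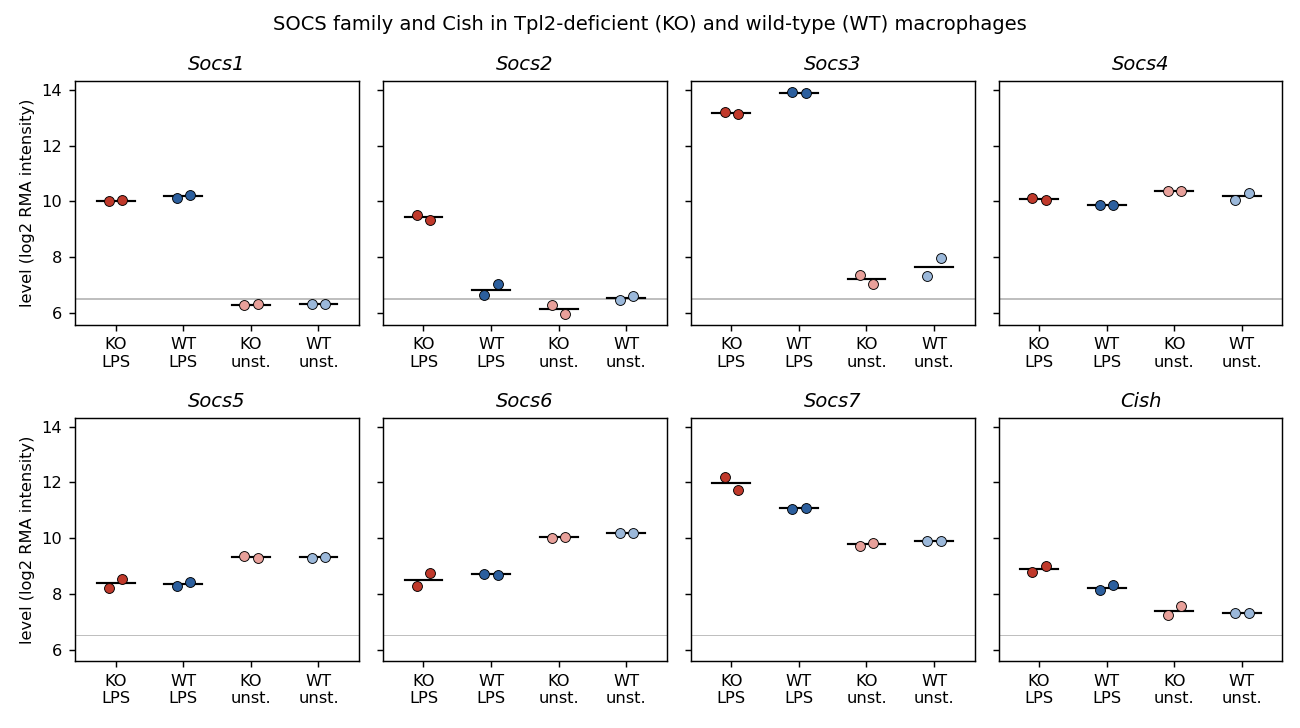
Level of each SOCS gene and Cish (log2 RMA intensity, vertical axis) in the 4 groups; points are single arrays, bars are means of 2 arrays, and the grey band is the range of the array medians (6.48 to 6.53). Socs2 stands at 9.51 and 9.35 in LPS-treated Tpl2-deficient cells (KO) and between 5.98 and 7.04 on the other 6 arrays.

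Socs1 and Socs3, the members that inhibit JAKs directly, gave the largest LPS responses of the family on the probe sets used. Socs1 stood at 10.03 and 10.04 in Tpl2-deficient cells with LPS, 10.13 and 10.25 in wild-type cells with LPS, 6.30 and 6.31 in unstimulated Tpl2-deficient cells, and 6.33 and 6.34 in unstimulated wild-type cells. All LPS arrays lay far above all unstimulated ones, and the unstimulated levels lay under the array medians. LPS therefore raised Socs1 at least 13.3-fold in Tpl2-deficient cells (3.73 ± 0.10 on the log2 scale, SE; adjusted p = 1.85e-10) and at least 14.4-fold in wild-type cells (3.85 ± 0.10; adjusted p = 1.43e-10). Between genotypes under LPS it differed by -0.15 (95% interval -0.36 to 0.06; adjusted p = 0.407), and the responses differed by -0.12 (adjusted p = 0.677).

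Socs3 was at 13.22 and 13.12 in Tpl2-deficient cells with LPS, 13.92 and 13.88 in wild-type cells with LPS, 7.37 and 7.06 in unstimulated Tpl2-deficient cells, and 7.34 and 7.98 in unstimulated wild-type cells. The LPS arrays of the genotypes did not overlap, with the wild type above, while the unstimulated arrays did overlap. LPS raised Socs3 62.0-fold in Tpl2-deficient cells (log2 change 5.95 ± 0.18; adjusted p = 5.12e-10) and 75.4-fold in wild-type cells (6.24 ± 0.18; adjusted p = 3.55e-10). The other Socs3 probe sets gave 40.9-fold and 68.6-fold in Tpl2-deficient cells and 91.1-fold and 131-fold in wild-type cells. Under LPS it was 1.66-fold lower in Tpl2-deficient cells (-0.73 ± 0.18; adjusted p = 0.0196).

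The call on Socs3 under LPS was lost with array weights (adjusted p = 0.128) and when any 1 of the 4 LPS arrays was left out (adjusted p = 0.0692 to 0.11). All 3 Socs3 probe sets were lower in LPS-treated Tpl2-deficient cells when each was tested alone, where 11.9% of all 34945 probe sets passed. Probe set 1416576_at read 12.08 and 12.36 in Tpl2-deficient cells, against 13.37 and 13.57 in wild-type cells, a log2 change of -1.25 (adjusted p = 4.8e-05). Probe set 1456212_x_at read 13.10 and 12.95, against 14.05 and 14.06, a change of -1.03 (adjusted p = 8e-05). The weaker LPS response of Tpl2-deficient cells passed for these other probe sets, with interactions of -1.16 (adjusted p = 0.00257) and -0.93 (adjusted p = 0.00434), where 6.41% of all probe sets passed. It did not pass for the probe set that represents the gene (-0.28; adjusted p = 0.566), on which the unstimulated wild-type arrays spread most. With the mean of all 3 Socs3 probe sets the interaction was -0.79 and passed (adjusted p = 0.0103).

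Cish and Socs2 are known as feedback inhibitors of STAT5 signalling downstream of growth hormone, prolactin and related receptors. Cish stood at 8.80 and 9.01 in Tpl2-deficient cells with LPS, 8.15 and 8.31 in wild-type cells with LPS, 7.25 and 7.56 in unstimulated Tpl2-deficient cells, and 7.33 and 7.32 in unstimulated wild-type cells. The groups with LPS did not overlap, and the unstimulated groups did. LPS raised Cish 2.82-fold in Tpl2-deficient cells (log2 change 1.497 ± 0.128; adjusted p = 2.12e-06) and 1.87-fold in wild-type cells (0.91 ± 0.13; adjusted p = 0.000105). Under LPS Cish was 1.59-fold higher in Tpl2-deficient cells (0.67 ± 0.13; adjusted p = 0.00494), and without replicate 1 of LPS-treated wild-type cells that call was lost (adjusted p = 0.0585). The difference between the LPS responses was 0.59 (95% interval 0.19 to 0.99) and missed the threshold (adjusted p = 0.0724), which it passed under 3 alternative settings.

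Socs2 stood at 9.51 and 9.35 in Tpl2-deficient cells with LPS, 6.64 and 7.04 in wild-type cells with LPS, 6.30 and 5.98 in unstimulated Tpl2-deficient cells, and 6.48 and 6.60 in unstimulated wild-type cells. The LPS-treated Tpl2-deficient arrays lay above all the others, which stood near the array medians. Under LPS Socs2 was 6.02-fold higher in Tpl2-deficient than in wild-type cells (log2 change 2.59 ± 0.15; adjusted p = 9.49e-07). LPS raised it at least 9.82-fold in Tpl2-deficient cells (3.296 ± 0.151; adjusted p = 1.16e-08). In wild-type cells the change was 0.30 (95% interval -0.03 to 0.64; adjusted p = 0.113), and the fitted LPS responses differed by 2.99 ± 0.21 (adjusted p = 1.38e-05). That size rests on an unstimulated Tpl2-deficient level under the array medians.

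Of the 6 Socs2 probe sets, 3 were higher in LPS-treated Tpl2-deficient cells than in wild-type cells, and the log2 changes ran between -0.18 and 3.18. Probe set 1418507_s_at showed 9.38 and 8.90 in Tpl2-deficient cells with LPS, against 5.75 and 6.17 in wild-type cells with LPS (at least 9.06-fold; adjusted p = 5.62e-07), and 1438470_at showed 6.81 and 6.28 against 5.76 and 5.90 (at least 1.64-fold; adjusted p = 0.0115). Both wild-type means lay under the array medians. Of the 3 that did not pass, 1446085_at and 1441476_at lay under the array medians in every group, and 1442586_at had group means between 5.92 and 6.67. The interaction passed for 2 of the 6. With the mean of all probe sets, the log2 changes were 1.10 between genotypes under LPS (adjusted p = 0.000189), 1.51 with LPS in Tpl2-deficient cells (adjusted p = 3.14e-06) and 1.185 for the interaction (adjusted p = 0.00244). With LPS in wild-type cells that mean changed by 0.325 and passed (adjusted p = 0.0475). Tested alone, 3 of the 6 probe sets rose with LPS in wild-type cells, where 47.7% of all probe sets passed in either direction. They were 1442586_at (0.68), 1438470_at (0.55) and 1441476_at (0.46), and the last 2 lay under the array medians with and without LPS.

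**Figure D2:**
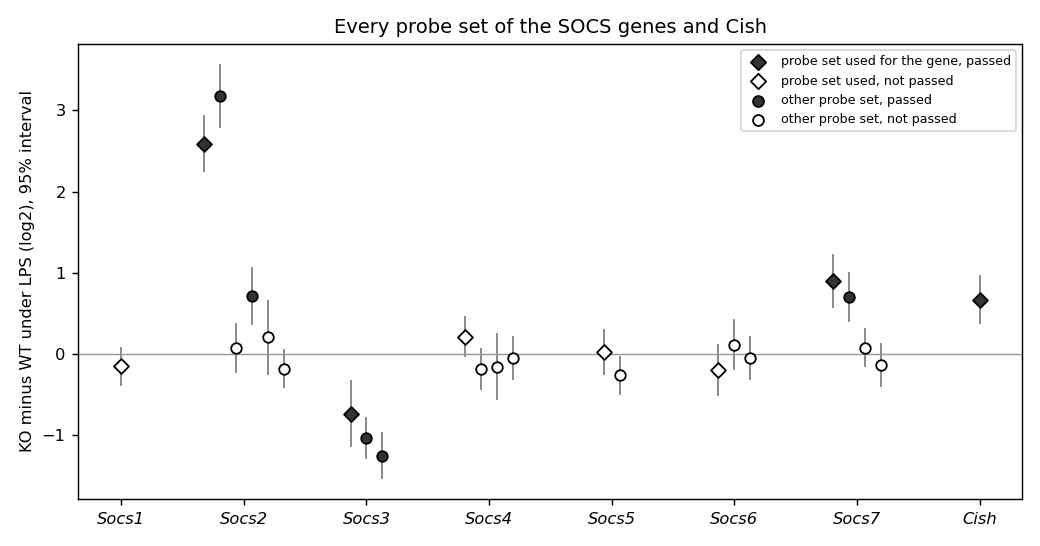
Log2 change between Tpl2-deficient (KO) and wild-type (WT) cells under LPS for each of the 24 probe sets, by gene; diamonds mark the probe set used for a gene, filled symbols passed an adjusted p of 0.05, and lines are 95% intervals. All 3 Socs3 probe sets are below 0, and the Socs2 probe sets range between -0.18 and 3.18.

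Socs7 and Socs6 are close relatives whose proteins have been tied mainly to insulin and other receptor tyrosine kinase signalling, and they moved in opposite directions with LPS. Socs7 was at 12.21 and 11.72 in Tpl2-deficient cells with LPS, 11.06 and 11.07 in wild-type cells with LPS, 9.73 and 9.84 in unstimulated Tpl2-deficient cells, and 9.89 and 9.91 in unstimulated wild-type cells. No groups overlapped, and the LPS-treated Tpl2-deficient arrays lay furthest apart. LPS raised Socs7 4.53-fold in Tpl2-deficient cells (log2 change 2.18 ± 0.14; adjusted p = 2.23e-07; averaged over its probe sets, 1.15) and 2.24-fold in wild-type cells (adjusted p = 3.33e-05). Under LPS it was 1.86-fold higher in Tpl2-deficient cells (0.90 ± 0.14; adjusted p = 0.00143).

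The Socs7 responses differed 2.02-fold between genotypes (interaction, adjusted p = 0.0106), which no longer passed with the mean of all 4 probe sets (0.34; adjusted p = 0.125). A second probe set, 1434834_at, read 10.65 and 10.98 in Tpl2-deficient cells with LPS against 10.04 and 10.19 in wild-type cells with LPS (0.70; adjusted p = 0.00476). The other 2 Socs7 probe sets differed between genotypes under LPS by 0.08 and -0.13 and did not pass. Tested alone, 1 of the 4 Socs7 probe sets passed for the interaction, where 6.41% of all probe sets passed. For 1434834_at the interaction was 0.677 and did not pass (adjusted p = 0.0572).

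Socs6 was at 8.29 and 8.74 in Tpl2-deficient cells with LPS, 8.73 and 8.69 in wild-type cells with LPS, 10.02 and 10.06 in unstimulated Tpl2-deficient cells, and 10.20 and 10.19 in unstimulated wild-type cells. Every LPS array lay below every unstimulated one, while the LPS arrays of the genotypes overlapped. LPS lowered Socs6 2.88-fold in Tpl2-deficient cells (log2 change -1.53 ± 0.14; adjusted p = 2.86e-06) and 2.80-fold in wild-type cells (-1.49 ± 0.14; adjusted p = 3e-06). All 3 Socs6 probe sets fell with LPS in both genotypes, where 39.0% of all probe sets passed in Tpl2-deficient cells and 47.7% in wild-type cells, and 1435492_at changed by -2.41 in Tpl2-deficient cells and -2.46 in wild-type cells. Between genotypes under LPS the difference was -0.19 (95% interval -0.49 to 0.11; adjusted p = 0.457), and it was called only without replicate 2 of LPS-treated Tpl2-deficient cells (-0.42; adjusted p = 0.0152).

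Socs5 and Socs4 are the remaining close pair, known for binding the epidermal growth factor receptor pathway and, for Socs5, interleukin-4 signalling. Socs5 was at 8.23 and 8.55 in Tpl2-deficient cells with LPS, 8.29 and 8.43 in wild-type cells with LPS, 9.36 and 9.28 in unstimulated Tpl2-deficient cells, and 9.28 and 9.34 in unstimulated wild-type cells. The genotypes overlapped in both conditions, and all LPS arrays were below all unstimulated ones. LPS lowered Socs5 1.91-fold in Tpl2-deficient cells (log2 change -0.93 ± 0.12; adjusted p = 6.67e-05) and 1.93-fold in wild-type cells (-0.95 ± 0.12; adjusted p = 4.77e-05). The other Socs5 probe set changed by -0.30 in Tpl2-deficient cells (adjusted p = 0.038) and gave -0.085 in wild-type cells (adjusted p = 0.528). The genotype difference under LPS was 0.03 (95% interval -0.24 to 0.29; adjusted p = 0.938).

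The probe sets of Socs4 disagreed in the direction of their LPS change. The probe set used read 10.13 and 10.05 in Tpl2-deficient cells with LPS, 9.88 and 9.87 in wild-type cells with LPS, 10.37 and 10.37 in unstimulated Tpl2-deficient cells, and 10.07 and 10.29 in unstimulated wild-type cells. Its LPS change was -0.28 ± 0.11 in Tpl2-deficient cells (adjusted p = 0.0545) and -0.31 ± 0.11 in wild-type cells (adjusted p = 0.031). The other 3 Socs4 probe sets rose with LPS in both genotypes, by 0.33 to 0.70 in Tpl2-deficient cells and 0.40 to 0.58 in wild-type cells. With the mean of all Socs4 probe sets the LPS change turned to 0.33 (adjusted p = 0.015) in Tpl2-deficient cells and 0.29 (adjusted p = 0.0225) in wild-type cells, so no direction is given for Socs4. Its genotype difference under LPS was 0.215 (95% interval -0.02 to 0.45; adjusted p = 0.249).

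**Figure D3:**
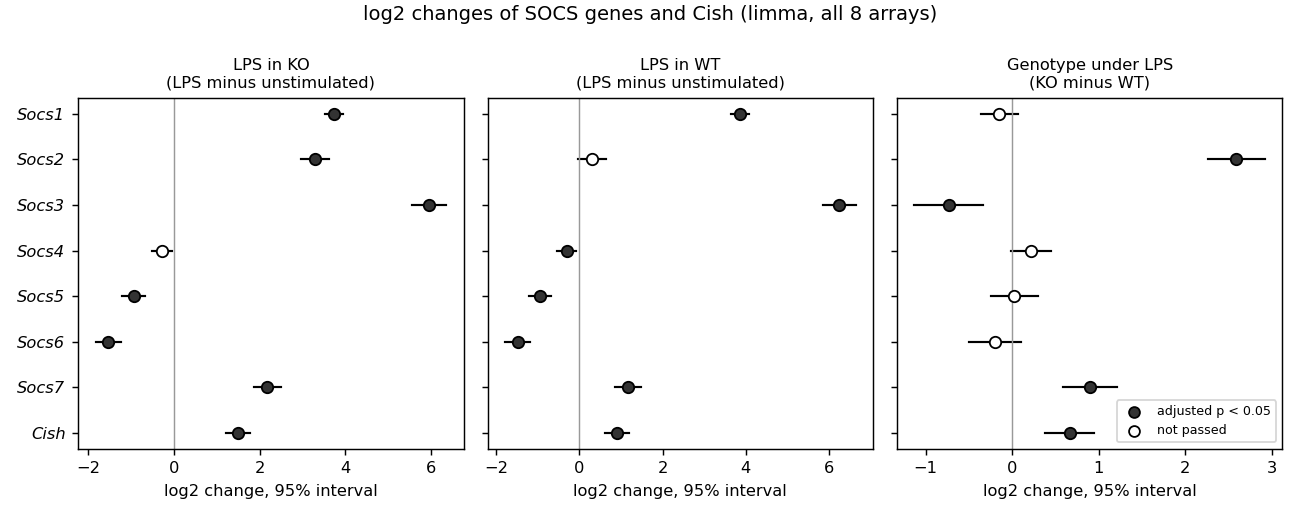
Log2 changes of the 8 genes with 95% intervals for LPS in Tpl2-deficient cells (KO), LPS in wild-type cells (WT) and genotype under LPS; filled symbols passed an adjusted p of 0.05. Socs1 and Socs3 lie furthest to the right in wild-type cells, Socs5 and Socs6 lie left of 0 in both genotypes, and Socs2 departs most between the genotypes.

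Ordered by group mean, Socs2, Socs7 and Cish were highest in LPS-treated Tpl2-deficient cells, followed by LPS-treated wild-type cells. Socs1 and Socs3 were highest in LPS-treated wild-type cells, followed by LPS-treated Tpl2-deficient cells. Neighbouring groups in that order overlapped for the unstimulated groups of Socs3, Socs5 and Cish, for the LPS groups of Socs5 and Socs6, and for LPS-treated Tpl2-deficient and unstimulated wild-type cells in Socs4. These orders describe the 2 arrays of each group.

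The genes whose levels ran most like each member over the 8 arrays were found by Pearson correlation among 8859 genes (8860 for Socs2) at or above the median level, as a description in which all genes share the same 4 groups. Socs1 ran most like Ccl3 (r = 0.9997), a chemokine gene, Tnfaip3 (0.9997), which encodes the NF-kB inhibitor A20, and Ifi35 (0.9994). Socs3 ran most like Spsb1 (0.9985), another SOCS-box gene, Lcn2 (0.9982), which encodes an iron-siderophore binding protein, and Rapgef2 (0.9975). Socs2 ran most like Tmem39a (0.9938), Rgs3 (0.9923) and Phf21a (0.9901), and Cish most like Stard7 (0.9956), Nup54 (0.9937) and Atm (0.9924). For Socs7 the nearest were Kdm4a (0.9973), Med21 (0.997) and Anp32a (0.9969), for Socs6 Zdhhc7 (0.9993), Odf2 (0.9992) and Extl3 (0.9986), for Socs5 Topbp1 (0.9985), Prkacb (0.9981) and Psap (0.998), and for Socs4 Serinc3 (0.9764), Cpq (0.9621) and Scoc (0.9577).

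Of 19 measured genes listed as STAT-activating cytokines, 5 were higher and 3 lower in Tpl2-deficient than in wild-type cells under LPS. Over all genes, 8.01% were higher and 5.73% lower. The median log2 change of the 19 was -0.06, against 0.02 over all genes. Ifnb1, which encodes interferon-β, read 10.33 and 9.84 in Tpl2-deficient cells with LPS and 7.48 and 7.54 in wild-type cells with LPS, 5.95-fold higher (adjusted p = 1.29e-06). Il10, an anti-inflammatory cytokine that signals through STAT3, read 8.89 and 8.81 against 11.53 and 11.62, 6.63-fold lower (adjusted p = 5.28e-08). Neither pair of groups overlapped.

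Csf3, which encodes granulocyte colony-stimulating factor, read 7.06 and 6.58 against 9.47 and 9.12, 5.55-fold lower (adjusted p = 2.23e-06), and Csf1, which encodes M-CSF, was 3.11-fold higher (adjusted p = 1.89e-05), or by 0.993 on the log2 scale with the mean of its probe sets. The LPS responses of Ifnb1, Il10 and Csf3 differed between genotypes by 2.49, -2.82 and -2.66 (adjusted p = 6.5e-05, 2.48e-06 and 4.73e-05), with unstimulated levels of Ifnb1 and Il10 under the array medians. LPS changed Csf3 by 0.03 (adjusted p = 0.901) in Tpl2-deficient cells and by 2.69 in wild-type cells. Il6, the main gp130 ligand of activated macrophages, differed by 0.31 between genotypes under LPS (adjusted p = 0.0676), and Csf2 by -0.31 (adjusted p = 0.249). The Il6 difference passed with the mean of all probe sets (adjusted p = 0.0428) and with repeated quantile normalization (adjusted p = 0.0442). It also passed when only genes at or over the median level were fitted (adjusted p = 0.0277).

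Of 23 measured cytokine receptor genes, 11 were lower and 1 was higher in Tpl2-deficient cells under LPS (median -0.26), against 5.73% lower and 8.01% higher over all genes. Ifnar1, a subunit of the type I interferon receptor, read 9.0 and 9.58 in Tpl2-deficient cells with LPS and 11.44 and 11.58 in wild-type cells with LPS, 4.67-fold lower (adjusted p = 5.42e-06), and Il4ra was 3.07-fold lower (adjusted p = 1.14e-06). Their LPS responses differed by -2.06 and -1.42 (adjusted p = 0.000299 and 0.000103). The gene that was higher, Il6st, encodes gp130 (1.92-fold; adjusted p = 0.000901), and with the mean of its probe sets it no longer passed (0.18; adjusted p = 0.295).

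Of 4 JAK genes 1 passed between genotypes under LPS, where 13.7% of all genes passed. It was Tyk2 (0.50; adjusted p = 0.0394), which did not pass without replicate 2 of LPS-treated Tpl2-deficient cells (0.28; adjusted p = 0.148) or in several other settings. Of 7 measured STAT factors 1 passed, Stat4 (0.69; adjusted p = 0.00223). Stat3 gave -0.02 (95% interval -0.27 to 0.23) and Stat5a -0.055 (-0.31 to 0.20). LPS raised all 4 JAK genes in both genotypes, where 16.0% of all genes were higher in Tpl2-deficient cells and 21.3% in wild-type cells. LPS changed Jak2 by 3.33 in Tpl2-deficient cells and 3.66 in wild-type cells, and Jak1 by 0.56 and 0.305. It raised Stat5a by 2.12 in Tpl2-deficient and 2.09 in wild-type cells, and Stat3 by 1.504 in Tpl2-deficient and 1.555 in wild-type cells.

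Other inhibitors of the pathway went both ways under LPS, 3 of 15 higher and 5 lower in Tpl2-deficient cells (median 0.02), against 8.01% and 5.73% of all genes. Sla, an adaptor that lowers receptor levels, was 2.86-fold lower (adjusted p = 5.91e-06), and Sh2b3, the adaptor LNK, was 2.56-fold lower (adjusted p = 5.9e-05). Pias3, an inhibitor of STAT3, was 1.90-fold higher (adjusted p = 7.57e-05). Usp18, a brake on interferon receptor signalling, rose with LPS by 4.65 in Tpl2-deficient cells and 5.02 in wild-type cells and differed by -0.16 between them under LPS (adjusted p = 0.673).

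Downstream, Tpl2-deficient cells given LPS had higher levels of 3 and lower levels of 7 of 20 STAT target genes (median -0.19). Over all genes, 8.01% were higher and 5.73% lower. The 7 include Il4ra, which is also counted among the lower receptor genes. Ccnd1 (cyclin D1) differed by -1.72 (adjusted p = 5.74e-06) and the survival gene Bcl2l1 by -1.23 (adjusted p = 2.51e-05). At rest, where 0.5% of all genes passed, 1 of the 20 did, Gbp2, an interferon-induced GTPase (0.80; adjusted p = 0.00656), and without any 1 of 3 unstimulated arrays it did not pass (adjusted p = 0.0504 to 0.11). Of 6 measured Toll-like receptor signalling proteins reported as SOCS targets, 2 were lower in Tpl2-deficient cells under LPS, against 5.73% of all genes. Tirap, the adaptor MAL that Socs1 is known to target, was 1.85-fold lower (adjusted p = 8.52e-05). Btk was 1.30-fold lower (adjusted p = 0.0321), a call lost without any 1 array other than replicate 2 of LPS-treated Tpl2-deficient cells.

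**Figure D4:**
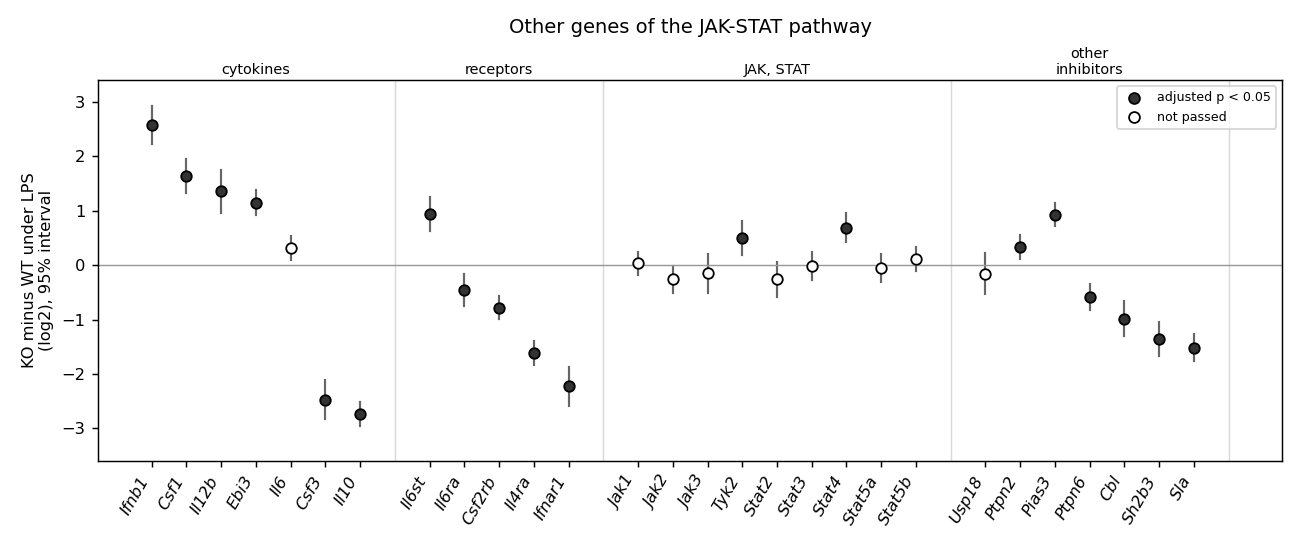
Log2 change between Tpl2-deficient (KO) and wild-type (WT) cells under LPS for other genes of the JAK-STAT pathway, by role, with 95% intervals; filled symbols passed an adjusted p of 0.05. Ifnb1 is highest at 2.57 and Il10 lowest at -2.73, while Stat3 and Stat5a lie near 0.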

How the data were processed

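Each of 8 RNA samples was hybridised to 1 Affymetrix mouse array. The authors deposited log2 intensities per probe set, made with GCOS and RMA per the submitters' processing notes; no versions, detection calls or genome build are given in the sources used here. GEO's platform annotation gave 1 symbol for 34945 probe sets, several for 932 and none for 9211. Control probe sets (64) and those without exactly 1 symbol were left out. Values were tested as deposited with limma 3.58.1 (R 4.3.3): 4 group means over all 8 arrays, eBayes (4 residual and 6.871 prior degrees of freedom), Benjamini-Hochberg adjustment over 18193 genes, or over 34945 probe sets where single probe sets are tested. The number of arrays limits precision.

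A change is called at an adjusted p under 0.05. Where the lower group's mean lay under the array medians (6.48 to 6.53), a rise is given as "at least", a rule chosen after values were seen. The members and all gene lists were chosen with earlier results of these data known. Besides the members, Map3k8 and a set of JAK-STAT genes are named whatever their p, and of each list up to 4 called genes with the largest change per comparison. Like genes were the 3 with the highest r. Promoters came from RefSeq. The fit was tested on simulated data. Alternatives changed the normalization, probe set choice, filter on dim genes, variance model, arrays fitted and replicate block.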

Additional observations from a re-analysis of the deposited data

Results flagged for a closer look

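The LPS response of Socs2 differed between Tpl2-deficient and wild-type macrophages by the test of the interaction, with a log2 difference of 2.992 (adjusted p = 1.38e-05), and of 1.185 (adjusted p = 0.00244) with the mean of all probe sets. Socs2 was higher with LPS on both Tpl2-deficient arrays. The LPS response of Socs7 differed in the same way, by 1.015 (adjusted p = 0.0106), which with the mean of all probe sets was 0.337 and did not pass (adjusted p = 0.125). The arrays of LPS-treated Tpl2-deficient cells, on which both differences rest, had the widest spread (median SD 0.1285).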

How the results depend on the processing

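Over 20 alternatives, 701 of 755 member values kept their direction and side of the threshold, 13 lost a call, 12 gained one and 29 changed sign; no cause was tested. The number of members called between Tpl2-deficient and wild-type cells under LPS ran between 2 and 4 when 1 array was left out, the 2 without replicate 1 of LPS-treated wild-type cells. Arrays of equal replicate number showed little shared deviation across genes (correlations of deviations between -0.1201 and 0.1004). Whether they shared a preparation cannot be told from these values. With the replicate block the counts of called members were 4 (genotype under LPS), 0 (genotype at rest), 7 and 7 (LPS in Tpl2-deficient and wild-type cells) and 3 (interaction); crossing the numbers of LPS-treated Tpl2-deficient arrays, chosen after seeing the data, gave 7 for LPS in Tpl2-deficient cells. Centring on hybridisation spike-ins shifted the median of all genes to -0.203 for LPS in Tpl2-deficient cells, against 0.002 as deposited, and no called member changed sign.

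Reversals with the mean of all probe sets, under LPS between genotypes, were Socs4 -0.043, Socs5 -0.116 and Stat3 0.129; at rest Socs4 -0.08, Socs5 -0.018 and Socs7 0.051; with LPS Socs4 0.33 in Tpl2-deficient and 0.293 in wild-type cells; and in the interaction Socs5 -0.098 and Socs6 0.007. With spike-ins they were Stat3 0.011 under LPS, Socs1 0.065 at rest, Csf3 -0.173 with LPS in Tpl2-deficient cells, and Socs4 -0.042 and Socs5 -0.05 in the interaction. Repeated quantile normalization gave Socs4 -0.077 and Socs5 -0.094 in the interaction, and array medians Socs5 -0.029 at rest. Except for Socs4 in wild-type cells, these results were not called as reported. Leaving out 1 array, values that crossed 0 ran, under LPS, between -0.133 and 0.184 for Socs5, -0.422 and 0.034 for Socs6, -0.149 and 0.107 for Stat3, and -0.189 and 0.079 for Stat5a; at rest between -0.031 and 0.046 for Socs5 and -0.08 and 0.235 for Cish; with LPS in Tpl2-deficient cells between -0.206 and 0.27 for Csf3; and in the interaction between -0.602 and 0.038 for Socs3, -0.083 and 0.135 for Socs4, -0.14 and 0.177 for Socs5, and -0.268 and 0.188 for Socs6.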

Other observations

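Beyond the SOCS genes, 26 other genes whose proteins carry a SOCS box were measured, and 4 were higher and 2 lower in Tpl2-deficient than in wild-type cells under LPS (median log2 change 0.05), against 8.01% and 5.73% of all genes. Of the 4, Asb11 and Asb14 lay under the array medians in both groups. Wsb1, a substrate receptor of a SOCS-box ubiquitin ligase, read 9.54 and 9.76 in Tpl2-deficient cells with LPS, against 11.35 and 11.33 in wild-type cells with LPS, 3.24-fold lower (adjusted p = 3.59e-06). LPS lowered it 2.29-fold in Tpl2-deficient cells and raised it 1.55-fold in wild-type cells, and the responses differed by -1.82 (adjusted p = 7.52e-05). Asb13 was 1.60-fold higher in Tpl2-deficient cells under LPS (adjusted p = 0.00366), a call lost without probe sets of the _x_at and _s_at types (0.16; adjusted p = 0.415). Of 7 measured ligase partners (elongins, cullins and their cofactors), LPS raised 2 in Tpl2-deficient cells, and in wild-type cells it raised 2 and lowered 2, Elob (-0.367; adjusted p = 0.0291) and Rnf7 (-0.313; adjusted p = 0.0228). Over all genes, LPS raised 16.0% and lowered 25.8% in Tpl2-deficient cells, and raised 21.3% and lowered 30.9% in wild-type cells. The Elob call was lost without any 1 wild-type array (adjusted p = 0.0795 to 0.121), and the Rnf7 call without any 1 of them but replicate 1 of LPS-treated cells (adjusted p = 0.0687 to 0.163). LPS raised Cul2, a cullin gene, 2.63-fold in Tpl2-deficient cells and 2.27-fold in wild-type cells.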
